A study of Mus musculus with 6 samples.

Results

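The genes described here encode proteins of the core spliceosome: the small nuclear ribonucleoproteins (snRNPs), the proteins that travel with them and the helicases that take the machine apart. The list held 45 genes, and its members in the data were all events of those genes in the 5 sections of the deposited splicing table. Of the 45 genes, 38 had at least 1 event, which gave 200 of the 45595 events in the table. Snrpd2, Snrpf and Snrpn of the Sm ring, Sf3b4 and Sf3b5 of the U2 snRNP, the tri-snRNP gene Prpf4 and the helicase gene Dhx8 had none. The 200 events were 131 skipped exons, 25 alternative 3′ splice sites, 17 retained introns, 15 pairs of exons tabulated as mutually exclusive and 12 alternative 5′ splice sites. Rbm39 (20 events), Prpf40b (15), Rbm25 (12) and Prpf39 (11) held the most.

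The study sequenced RNA of the mouse neuroblastoma line Neuro-2a (N2a) in 3 wild type libraries and 3 libraries of the genotype hnRNP DL-/-, which lack the RNA-binding protein hnRNP DL, to compare RNA splicing between them. The labels name no treatment for either group, and the number of knockout clones behind the 3 libraries is not given in the sources used here. The table calls its columns sample 1 and sample 2, with 3 libraries in each, and no label or header says which of them is the knockout. They are therefore named set 1 and set 2, every difference is set 1 minus set 2, and no direction below can be read as an effect of the knockout.

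Each intron of a pre-mRNA is removed by snRNPs that assemble on it in order. The U1 snRNP pairs with the 5′ splice site and the U2 snRNP with the branch point, the U4/U6.U5 tri-snRNP joins them, and the Prp19 complex accompanies the step to the active machine. A ring of Sm proteins wraps the RNA of most snRNPs, and a separate minor spliceosome removes a small class of introns. The transcripts of these genes are spliced by the machine they encode, and several are known to carry exons that stop translation early, so that the RNA is removed by nonsense-mediated decay.

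Summed over its events, the whole table held 13501749 to 18185394 junction reads per library. Events of these 38 genes held 82190 to 107984 in the same sums. A read on a junction shared by several events is counted in each of them. Hnrnpdl itself stood at 399, 429 and 433 CPM (junction reads of its most-read event, scaled to a common library sum) in set 1 and 470, 502 and 502 in set 2. The sets did not overlap, and the log2 ratio was -0.22 ± 0.09 (SE; limma adjusted p = 0.392). The deleted stretch is not given in the sources used here and reads outside it check nothing, so this gene does not assign a genotype to a set. Of 19 listed neuroblastoma and neuronal markers 8 were in the table, all of them with a mean over the 6 libraries of 20 or more reads, while of 18 markers of other cell types 4 were in it and 0 reached that mean. Some of the 8 differed between the sets: Dbh, which makes noradrenaline, stood at 2.27 and 14.7 CPM in set 1 and set 2 (limma adjusted p = 0.00347), and the granule protein gene Chgb at 278 and 548 CPM (adjusted p = 0.0132). Gata2 was at 92.3 and 129 CPM with sets that did not overlap (adjusted p = 0.0686), and the other 5 overlapped. The part of these markers in the values below was not tested.

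None of the spliceosome events was called different between the sets by any of the tests. The authors' deposited table calls 0 of the 200 (at an adjusted p under 0.05 with levels at least 0.10 apart), where it calls 294 of all 45595 events, 0.645%. The inclusion level is the share, from 0 to 1, of junction reads that include the exon, intron or longer form, each form divided by its length. With a mean of 20 or more reads per library, 188 of the 200 events were tested again with a quasi-binomial test that takes the spread between libraries into account. It called 0 of the 188, and 0 of all 39419 events (0.0%). At an unadjusted p under 0.05 stood 4 of the 188, against 3.45% of the whole table, and the smallest adjusted p among the 188 was 0.735. That count was 4 to 9 when 1 library was left out, with 9 when it was the first of set 2, and 11 with the dispersion moderated along the total count, while the calls stayed at 0. The share of the whole table under those settings is not given here, so these counts have no background beside them. Limma on logit levels also called 0 of the 188, with 4 at an unadjusted p under 0.05 (1298 of the 39419 tested events of the whole table). It called 0.0% of the whole table. The levels of set 1 lay all above those of set 2 in 7 of the 188 events (3.23% of all tested events) and all below in 1 (2.7%).

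Most of these events were near one end of the scale. The level was over 0.9 in 111 of the 188 and under 0.1 in 35, and 42 events in 16 genes lay between (22.3%, against 22.7% of the whole table). Set 1 was higher in 107 events and lower in 81, with a median difference of 0.000582 and a median size of 0.00379, against 0.0083 for all tested events. Among skipped exons 80 were higher and 42 lower in set 1 (65.6% higher, against 56.8% of all skipped exons tested). Many events share junctions, so these counts are not of independent events. How closely the data bound a difference varied: of the 42 events in the middle of the scale, the 95% interval of the difference lay within ±0.10 for 18 and within ±0.20 for 39.

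**Figure D1:**
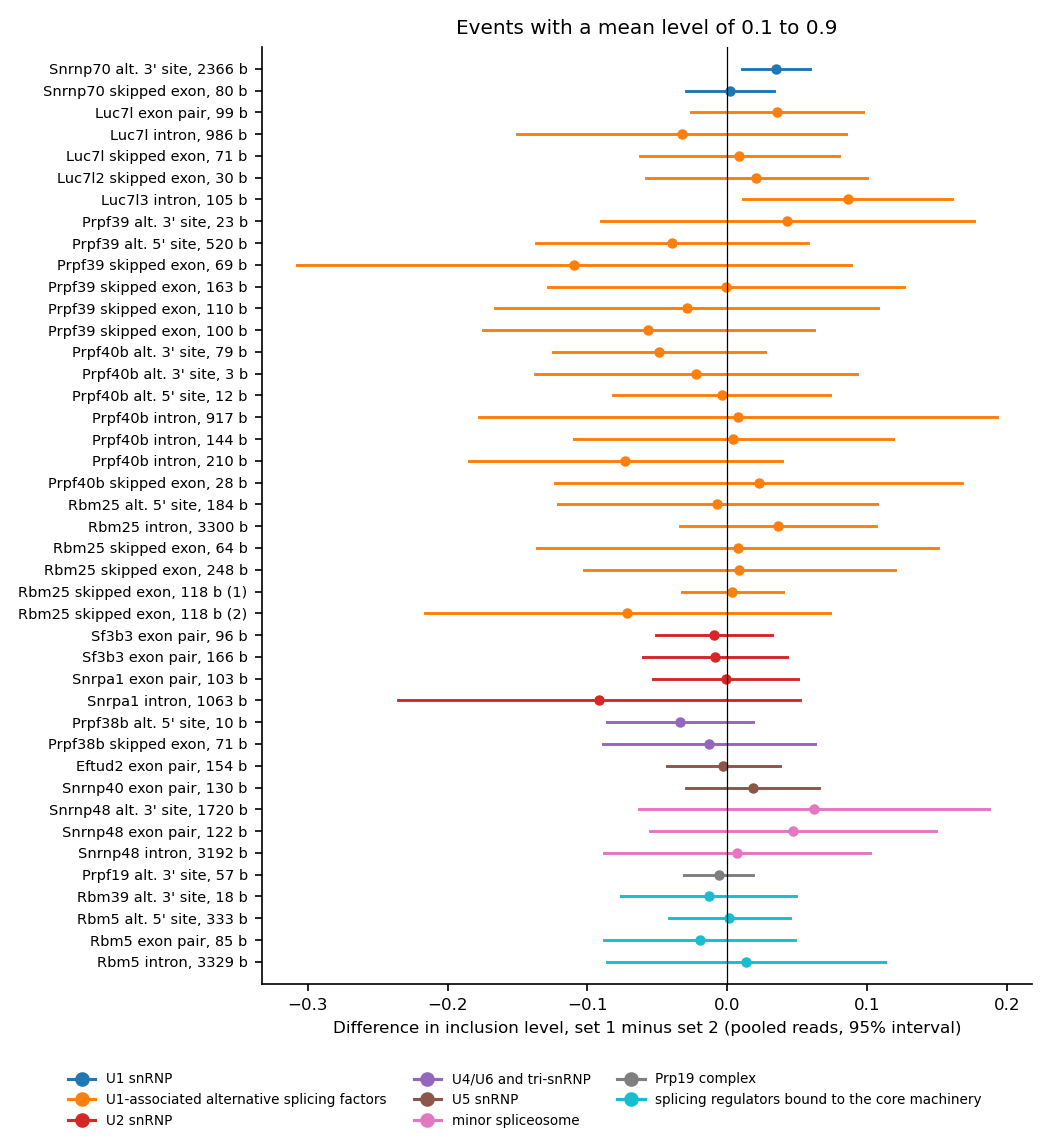
Difference in inclusion level, set 1 minus set 2, from the pooled reads of 3 libraries each, for the 42 spliceosome gene events with a mean level of 0.1 to 0.9, coloured by the role of the gene; points are differences and lines 95% intervals. The intervals of 2 events, the long Snrnp70 3′ site and the Luc7l3 intron, leave out 0, and neither passed adjustment.

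Skipped exons outside the protein-coding annotation that interrupt a coding stretch lay in genes of 5 of the 10 roles. In these 22 events of 10 genes, a transcript that skips the exon is annotated as protein-coding by GENCODE vM21 (GRCm38, the assembly of mm10). It has coding sequence on both sides of the skipping junction. No including transcript is protein-coding, and for 17 of the 22 an including transcript is annotated as a target of nonsense-mediated decay. Exons without such a coding junction, among them the 69-base Prpf39 exon described below, are not counted. Reading on in the frame of the coding transcript, 18 of the 22 brought a stop codon, and the other 4 shifted the frame. Of these, 7 are shown here because they carry the stop within the exon, 1 for each of 7 genes, 5′ to 3′ on the strand of the gene, with the first in-frame stop codon in capitals.
Snrnp70, 60 bases: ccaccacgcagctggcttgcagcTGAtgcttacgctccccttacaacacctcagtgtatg
Luc7l2, 47 bases: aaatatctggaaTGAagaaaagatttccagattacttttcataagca
Prpf39, 100 bases: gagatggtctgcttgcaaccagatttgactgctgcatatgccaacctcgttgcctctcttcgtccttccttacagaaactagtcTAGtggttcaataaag
Rbm25, 105 bases: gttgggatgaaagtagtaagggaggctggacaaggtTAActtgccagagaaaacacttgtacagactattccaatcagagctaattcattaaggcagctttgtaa
Snrpb, 124 bases: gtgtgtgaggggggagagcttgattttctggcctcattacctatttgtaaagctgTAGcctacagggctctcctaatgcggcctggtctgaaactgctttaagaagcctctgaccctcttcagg
Prpf38b, 71 bases: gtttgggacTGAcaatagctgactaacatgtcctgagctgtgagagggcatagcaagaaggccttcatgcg
Rbm39, 73 bases: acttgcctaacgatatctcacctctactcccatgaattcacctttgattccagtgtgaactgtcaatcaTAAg

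The sequences come from the GENCODE vM21 transcripts. The Snrnp70 exon lies at chr7:45383125-45383184 (minus strand), the Luc7l2 exon at chr6:38571042-38571088 (plus), the Prpf39 exon at chr12:65055434-65055533 (plus) and the Rbm25 exon at chr12:83651646-83651750 (plus). The Snrpb exon lies at chr2:130176629-130176752 (minus), the Prpf38b exon at chr3:108905918-108905988 (minus) and the Rbm39 exon at chr2:156178880-156178952 (minus).

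The inclusion level of these exons spanned a wide range in the cells. It was below 0.05 for 16 of the 22 and 0.05 or more for 6: the Prpf39 exons of 100 and 110 bases, the 71-base exons of Luc7l and Prpf38b, the 73-base Rbm39 exon and the 105-base Rbm25 exon. Among the 22, set 1 was higher in 15 and lower in 7, where 56.8% of all skipped exons tested were higher. Some of the 22 share a skipping junction, so they are not independent. Their median difference was 0.00148 and the largest size 0.0567. None of the 22 had an unadjusted quasi-binomial p under 0.05. The 69-base Prpf39 exon, which also has no protein-coding including transcript, is outside the 22. It stood higher, at 0.657 in set 1 and 0.779 in set 2, a difference of -0.123. Its event had a mean of 33.2 reads per library, against 118 for the 100-base exon. That level is therefore not a share of all Prpf39 transcripts. The levels count only RNA still present, so RNA already removed by decay is not in them.

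**Figure D2:**
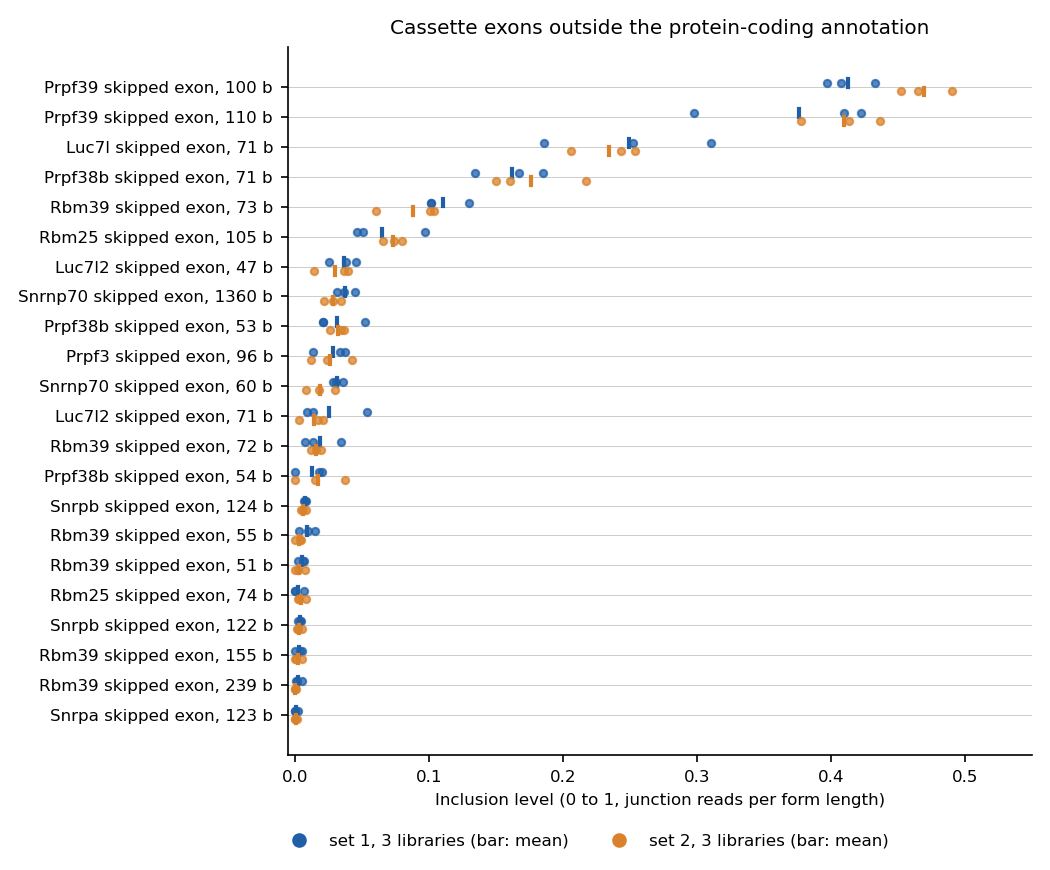
Inclusion level (axis from 0 to 0.55) of the 22 skipped exons that interrupt a coding stretch and whose including transcripts are not annotated as protein-coding, ordered by level. Points are libraries, bars the means of 3 libraries, blue set 1 and orange set 2. Only the sets of the 100-base Prpf39 exon and the 239-base Rbm39 exon do not overlap, and the 5 highest exons lie between 0.0602 and 0.49. The Rbm39 exon of 239 bases is near 0, with a mean of 1.5 including reads per library. Of all tested events, 3.23% had set 1 all above set 2 and 2.7% all below.

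The U1 snRNP proteins Snrnp70, Snrpa and Snrpc had 14 tested events, 10 of them in Snrnp70, 1 in Snrpa and 3 in Snrpc. Snrnp70 held 2 of the 4 unadjusted p-values under 0.05. The acceptor of the 60-base exon shown above serves 3 tabulated forms, the 60-base exon, a 1360-base exon and a 2366-base extension of the next exon (chr7:45380819-45383184). All begin with the same stop-bearing bases. The extension stood at 0.142, 0.172 and 0.178 in set 1 and 0.116, 0.161 and 0.102 in set 2. The sets overlapped, with 1 library of set 2 above 1 of set 1. Its difference was 0.0378 (0.0255 to 0.0552 with 1 library left out), the 95% interval from pooled reads was 0.0108 to 0.0592, and the quasi-binomial p of 0.00529 became 0.735 after adjustment.

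The 60-base exon was less used, at 0.0281, 0.0359 and 0.0308 against 0.0177, 0.0296 and 0.0085 (difference 0.0129, interval -0.000344 to 0.0253; quasi-binomial adjusted p = 0.735). Its adjusted p was 0.134 in the authors' deposited table, which gives the extension 0.124. Because the forms share the acceptor and its reads, their shared direction is 1 observation. The 157-base exon of the same gene (chr7:45394659-45394815) was included at 1 in every library of set 1 and at 0.999, 0.996 and 0.993 in set 2, a difference that rests on a mean of 2 skipping reads per library. An 80-base exon in the 5′ UTR (chr7:45395093-45395172), the Snrnp70 event with the most reads on its rarer form, did not separate the sets: 0.149, 0.155 and 0.112 against 0.153, 0.138 and 0.111 (interval of the difference -0.0297 to 0.0338). The Snrpa exon of 123 bases was at 0 or close to it, with levels up to 0.00228.

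The proteins that bind the U1 snRNP and shape the choice of 5′ splice site had the largest share of events in the middle of the scale. Luc7l, Luc7l2 and Luc7l3 are mammalian relatives of yeast Luc7, Prpf39 and Prpf40b of yeast Prp39 and Prp40, and Rbm25 is an RNA-binding regulator found with U1. Of their 52 tested events 24 (46.2%) had a level of 0.1 to 0.9, with at least 1 in each of the 6 genes. The share was 30% in the minor spliceosome, the next highest, and the Sm ring had 0 of 8. Some of the 24 share junctions, so they are not independent events. Over the 52 events the median size of the differences was 0.0144, and the largest was 0.123.

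Prpf39 had an exon of 100 bases, shown above, that was included in close to as many transcripts as skipped it: 0.408, 0.433 and 0.397 in set 1 and 0.490, 0.452 and 0.465 in set 2. Every library of set 1 lay below every library of set 2, the only event with such a separation and a difference of 0.05 or more among the 188. The mean levels were 0.413 ± 0.018 and 0.469 ± 0.019 (SD, n = 3 each), and the interval of the difference from pooled reads ran from -0.175 to 0.0619 (quasi-binomial adjusted p = 0.735). Exons of 163 and 110 bases that end at the same donor (chr12:65043715-65043877 and chr12:65043768-65043877) stood at 0.471 and 0.377 in set 1 and 0.474 and 0.409 in set 2. The largest difference of all 188 was that of a 69-base Prpf39 exon (chr12:65043543-65043611), 0.718, 0.579 and 0.673 against 0.811, 0.854 and 0.673. On average it had 33.2 reads in a library, the sets overlapped, and its interval of -0.308 to 0.0883 covers 0.

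The Luc7l genes showed the same kinds of event at different levels. A 71-base exon is present in both Luc7l (chr17:26253974-26254044, plus strand) and Luc7l2 (chr6:38568847-38568917, plus strand), in transcripts annotated as decay targets. The pair is shown because 60 of the 71 bases are identical (84.5%), with the 11 that differ in capitals.
Luc7l: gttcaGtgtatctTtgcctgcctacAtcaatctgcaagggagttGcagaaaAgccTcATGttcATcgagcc
Luc7l2: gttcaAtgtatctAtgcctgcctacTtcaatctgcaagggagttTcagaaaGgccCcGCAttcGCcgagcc

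Luc7l included its copy at 0.311, 0.186 and 0.252 in set 1 and 0.254, 0.206 and 0.243 in set 2. Luc7l2 included its copy at 0.0541, 0.0136 and 0.0087 in set 1 and 0.0208, 0.0175 and 0.00336 in set 2. The Luc7l level was above the Luc7l2 level in all 6 libraries, and within each gene the sets overlapped. Neither passed the test, and the intervals of the difference were -0.0622 to 0.0798 for Luc7l and -0.0138 to 0.0312 for Luc7l2. The 986-base intron after the Luc7l exon (chr17:26254045-26255030) was retained at 0.605 ± 0.065 in set 1 and 0.641 ± 0.11 in set 2 (SD, n = 3 each). That level counts only the junction that leaves the 71-base exon as spliced, with 32.3 reads per library. The 206 reads per library that skip the exon are not in it, so it is not a share of all Luc7l transcripts.

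A coding exon of 30 bases in Luc7l2 (chr6:38598785-38598814, plus strand), which keeps the reading frame, was near even use and had 701 reads per library on average.
Luc7l2, 30 bases: gtcccgatcacatagcaagaatcccaaaag
Its levels were 0.476, 0.505 and 0.494 in set 1 and 0.535, 0.456 and 0.384 in set 2. The spread within set 2 covered all of set 1. The difference of 0.0335 had an interval of -0.0581 to 0.0999 (quasi-binomial adjusted p = 0.836).

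In Luc7l3 a 105-base stretch (chr11:94293033-94293137) was kept as a retained intron at 0.853, 0.907 and 0.846 in set 1 and 0.720, 0.789 and 0.862 in set 2. One library of set 2 lay above 2 of set 1. The difference was 0.0783, with an interval of 0.0111 to 0.161, a quasi-binomial p of 0.0279 (adjusted p = 0.735) and an adjusted p of 0.128 in the authors' deposited table. Without the first library of set 2 the difference was 0.0430, and over all libraries left out in turn it ranged up to 0.114. The means were 190 reads per library on the retained form and 24.7 on the spliced form.

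Of the 15 Prpf40b events 13 had enough reads to be tested. Its 210-base intron (chr15:99314981-99315190) was retained at 0.309, 0.312 and 0.443 against 0.311, 0.475 and 0.481, with 1 library of each set on the far side (interval -0.185 to 0.0394). The smallest adjusted p of the 200 events in the authors' deposited table, 0.0831, belonged to an event of its 81-base exon (chr15:99303283-99303363). In that event the exon stood at 0.931, 1 and 1 in set 1 and 0.951, 0.901 and 0.760 in set 2, with 2.83 skipping reads in an average library (quasi-binomial adjusted p = 0.735). Another event of the same exon had an unadjusted p of 0.333 in the authors' deposited table. In Rbm25 the 3300-base intron (chr12:83660679-83663978) was retained at 0.284, 0.294 and 0.270 in set 1 and 0.238, 0.236 and 0.269 in set 2. Its sets did not overlap but nearly met, and its interval was -0.0341 to 0.106. The 105-base stop-bearing exon of Rbm25 stood at 0.0646 and 0.0730.

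**Figure D3:**
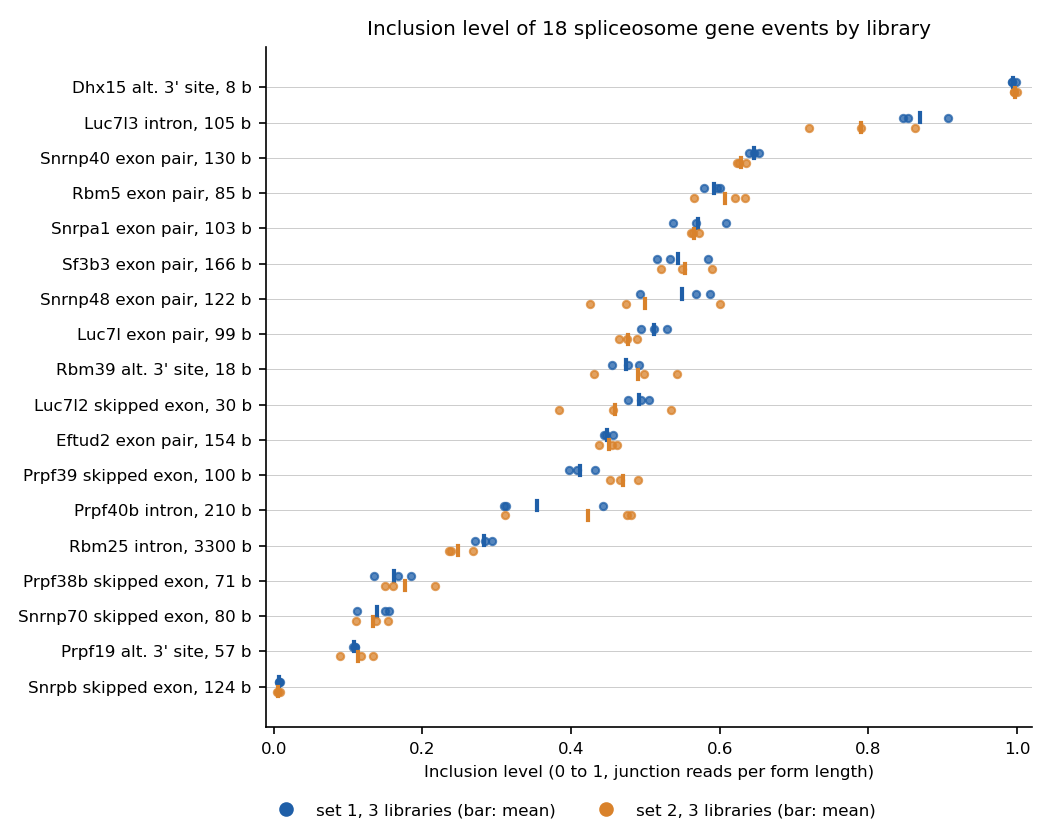
Inclusion level (0 to 1) in each library for 18 spliceosome gene events, ordered by level: the event with the most reads on its rarer form in each role, 1 event per gene with a level of 0.1 to 0.9, and the 100-base Prpf39 exon; points are libraries, bars the means of 3 libraries, blue set 1 and orange set 2. The sets overlap except for the Prpf39 exon, the Rbm25 intron and the exon pairs of Luc7l and Snrnp40, and all differences of the means are under 0.08.

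The Sm proteins, which form the ring around the snRNA, had no event in the middle of the scale. The 8 tested events lay in Snrpb (3), Snrpd3 (2), Snrpd1, Snrpe and Snrpg (1 each), and their largest difference was 0.00114, on levels close to 0 or 1 that leave little room for one. That value came from the 124-base Snrpb exon shown above, in the gene for SmB, a protein known to limit its own transcript through an exon that leads to decay. It was included at 0.00759, 0.00788 and 0.00655 in set 1 and 0.00826, 0.00416 and 0.00617 in set 2, on 12 to 21 including reads per library. The interval of the difference was -0.00252 to 0.00521. Its upper end lies within the range of the level itself, 0.00416 to 0.00826 between libraries, so a relative change is not closely bounded.

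In the U2 snRNP the SF3A and SF3B proteins bind around the branch point and Snrpa1 and Snrpb2 bind the snRNA itself. Of 22 tested events 4 were in the middle of the scale, 2 in Sf3b3 and 2 in Snrpa1. The 1063-base Snrpa1 intron (chr7:66069527-66070589) had the largest difference of the role, 0.377, 0.540 and 0.316 against 0.477, 0.565 and 0.495, with overlapping sets and an interval of -0.235 to 0.0522. This stretch holds an 80-base coding exon (chr7:66070119-66070198), included at 0.943 over the 6 libraries as a skipped exon. The spliced form counted here is the junction that skips that exon, with 26 reads per library. The level is therefore not the share of Snrpa1 transcripts that retain an intron. Sf3a2 used an upstream acceptor that adds 19 bases (chr10:80803801-80803819, plus strand) at 0.0609, 0.102 and 0.0592 against 0.0601, 0.0419 and 0.0414. Sf3a3 included a 48-base coding exon (chr4:124715269-124715316, plus strand) at 0.929, 0.927 and 0.913 against 0.925, 0.890 and 0.888. In both, 1 library of set 2 lay within set 1, and the adjusted quasi-binomial p was 0.735. The added sequences are shown because the first is pyrimidine-rich and ends in the AG of the downstream acceptor, and the second keeps the frame.
Sf3a2, 19 bases: cctctgactttctccctag
Sf3a3, 48 bases: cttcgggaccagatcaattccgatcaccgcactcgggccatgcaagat

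Among the tri-snRNP genes Prpf31, Prpf3 and Prpf6 hold the U4/U6 and U5 parts together, and Prpf38b is a relative of the activation factor Prp38. Of their 23 tested events 2 were in the middle of the scale, both in Prpf38b. Its 71-base stop-bearing exon stood at 0.185, 0.168 and 0.134 in set 1 and 0.217, 0.161 and 0.150 in set 2 (interval -0.0889 to 0.0625). Prpf31 had the remaining unadjusted quasi-binomial p under 0.05, 0.0133 for an 18-base acceptor choice (chr7:3638631-3638648). It rests on 7 skipping reads in 1 library of set 1 and 1 in another, since the level was 0.995, 0.960 and 1 in set 1 and 1 in all of set 2 (adjusted p = 0.735).

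The U5 snRNP genes encode the large scaffold Prpf8, the helicase Snrnp200, the GTPase Eftud2 and the WD-repeat protein Snrnp40. Of 21 tested events 2 were in the middle, both exon pairs, and the largest difference of the role was 0.0182. An acceptor 3 bases upstream in Eftud2 (chr11:102871183-102871185) was used at 0.103, 0.0827 and 0.0896 against 0.0815, 0.103 and 0.0998, with no separation. Other tandem acceptors of this kind, each adding 3 bases, stood at 0.373 and 0.384 in Prpf40b, at 0.944 and 0.935 in Rbm39, at 0.980 and 0.958 in Rbm5, at 0.984 and 0.955 in Prpf39 and at 0.987 and 0.974 in Rnpc3 (set 1 and set 2). The bases added are cag in Prpf40b, Rbm39, Rbm5 and Rnpc3, gag in Prpf39 and atg in Eftud2, so that the shorter and more used Eftud2 form begins after TG where the others begin after AG. In Rbm5 the sets did not overlap, at 0.979, 0.979 and 0.982 against 0.933, 0.966 and 0.976 (quasi-binomial adjusted p = 0.735).

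The pairs tabulated as mutually exclusive exons need care in these genes. Of the 14 tested pairs 10 have a protein-coding transcript in GENCODE vM21 that holds both exons, and 8 had a level of 0.1 to 0.9. In Sf3b3 (chr8:110835549-110835714 and chr8:110837292-110837395) the pair level was 0.544 in set 1 and 0.553 in set 2. As skipped exons, the same exons were included at 0.9997 and 0.9998 over the 6 libraries. The Eftud2 pair stood at 0.449 and 0.451, with its exons included at 0.9998 and 0.998, and the Snrnp40 pair at 0.646 and 0.628, with its exons at 0.998 and 0.999. The pair level there sets the reads of one exon against those of another that nearly all transcripts also hold. The pairs of Luc7l (0.494, 0.512 and 0.529 against 0.489, 0.464 and 0.475) and Snrnp40 (0.639, 0.653 and 0.646 against 0.623, 0.635 and 0.626) did not overlap between the sets, and neither passed a test. Those of Snrpa1 (0.571 and 0.566), Rbm5 (0.592 and 0.607) and Snrnp48 (0.549 and 0.50) did.

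The minor spliceosome genes Snrnp48, Snrnp25 and Rnpc3 encode proteins of the U11/U12 particle. Of 10 tested events 3 were in the middle of the scale, all in Snrnp48. Its 3192-base intron (chr13:38217496-38220687) was retained at 0.288, 0.287 and 0.288 in set 1 and 0.241, 0.282 and 0.348 in set 2. Set 1 was tightly grouped inside the range of set 2. The 1720-base acceptor extension of the same gene (chr13:38214605-38216324) stood at 0.551 ± 0.092 and 0.498 ± 0.054 (SD, n = 3 each).

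Of the Prp19 complex genes, Prpf19 (the ubiquitin ligase that names it), Cdc5l and Crnkl1, only Prpf19 had an event in the middle of the scale among 7 tested. An upstream acceptor adds 57 bases in frame (chr19:10898926-10898982, plus strand).
Prpf19, 57 bases: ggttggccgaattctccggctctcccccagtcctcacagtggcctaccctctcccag
It was used at 0.106, 0.109 and 0.109 in set 1 and 0.134, 0.0885 and 0.117 in set 2, with 744 reads in an average library. The interval of the difference was -0.0306 to 0.0182, which bounds it on both sides. The helicase gene Dhx15, which acts in spliceosome disassembly, had 3 tested events, all close to full inclusion. Its 8-base acceptor choice (chr5:52157570-52157577) stood at 0.995 and 0.997, and its 192-base exon was skipped by 1 read in all of set 1 and by 2, 4 and 3 reads in the libraries of set 2.

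Rbm39 and Rbm5 are RNA-binding regulators that contact the core machinery, Rbm39 as a relative of the U2AF large subunit. Of 28 tested events 4 were in the middle and the largest difference was 0.0227, from the 73-base stop-bearing exon of Rbm39 shown above. That exon stood at 0.101, 0.130 and 0.101 in set 1 and 0.1004, 0.104 and 0.0602 in set 2, with an interval of -0.0120 to 0.0561. An 18-base acceptor choice of Rbm39 (chr2:156154272-156154289, minus strand) keeps the frame and was near even use.
Rbm39, 18 bases: aattctcttttgttatag
Its levels were 0.492, 0.476 and 0.455 in set 1 and 0.498, 0.543 and 0.430 in set 2, and again set 1 lay inside set 2 (quasi-binomial adjusted p = 0.881). The 333-base donor choice of Rbm5 (chr9:107770552-107770884) stood at 0.143 and 0.140.

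How many junction reads each gene had was compared on its most-read event, in CPM, relative to the sum of such reads over the 8285 genes tested. This total moves with the amount of RNA and with the splicing of that event together, and in bulk RNA fewer cells with a transcript and less transcript per cell cannot be told apart. All 38 genes were tested with limma on log2(CPM + 1). The test called 0 of 38 at an adjusted p under 0.05, against 88 of 8285 genes (1.06%), and 0 of 38 had an unadjusted p under 0.05, against 9.45% of all genes. Without the first library of set 2 that count was 2. Set 1 was higher in 17 genes and lower in 21, the median log2 ratio was -0.00795, and the 95% intervals of the fold all lay between 0.633 and 1.42.

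Libraries of set 1 lay all above those of set 2 in 1 of the 38 genes (7.4% of all genes) and all below in 2 (6.67%). Snrpd1, an Sm protein gene, had 358, 370 and 341 CPM in set 1 and 385, 443 and 400 in set 2. Its log2 ratio was -0.20 ± 0.09 (SE), the smallest adjusted p of the 38 (limma, 0.549). Snrnp70 had 448, 420 and 464 against 511, 486 and 499, a log2 ratio of -0.17 ± 0.09 (limma adjusted p = 0.615). Eftud2 was the gene with set 1 above, at 394, 371 and 376 against 366, 320 and 344 (log2 0.15 ± 0.09, limma adjusted p = 0.704).

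The largest log2 ratios had the wider errors. Prpf38b stood at -0.28 ± 0.18, with 36.1, 38.4 and 48.4 CPM against 40.2, 50.6 and 59.7. Prpf39 stood at -0.26 ± 0.16, with 55.9, 73.1 and 86.6 against 74.0, 86.1 and 95.3. In the other direction Rbm5 stood at 0.17 ± 0.13, with 69.2, 63.6 and 72.6 against 67.1, 59.0 and 56.3. The sets of all 3 genes overlapped. The 6 U1-associated genes were all lower in set 1, from -0.05 ± 0.12 for Luc7l2 to the value of Prpf39, with a median of -0.13, and none passed the test. The Luc7l2 value was 0.0352 without the first library of set 2, so that all 6 were not lower under that setting.

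In the U1, U2 and U5 snRNPs, the Sm ring, the tri-snRNP, the minor spliceosome and the Prp19 complex the log2 ratios went both ways. Beside the values above, the highest or lowest of a role were 0.15 ± 0.12 for Snrpa in the U1 snRNP, 0.03 ± 0.11 for Snrpe in the Sm ring, 0.06 ± 0.17 for Sf3a2 and -0.16 ± 0.11 for Snrpa1 in the U2 snRNP. The same values were 0.12 ± 0.13 for Prpf3 in the tri-snRNP, -0.06 ± 0.13 for Snrnp200 in the U5 snRNP, and 0.14 ± 0.17 for Snrnp48 and -0.13 ± 0.15 for Snrnp25 in the minor spliceosome. Cdc5l (0.03 ± 0.14), Prpf19 (-0.02 ± 0.11), Dhx15 (-0.04 ± 0.10) and Rbm39 (0.00 ± 0.14) were within their errors of 0. The Rbm39 value was slightly below 0 with median-of-ratios scaling and with the sum of all its events.

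**Figure D4:**
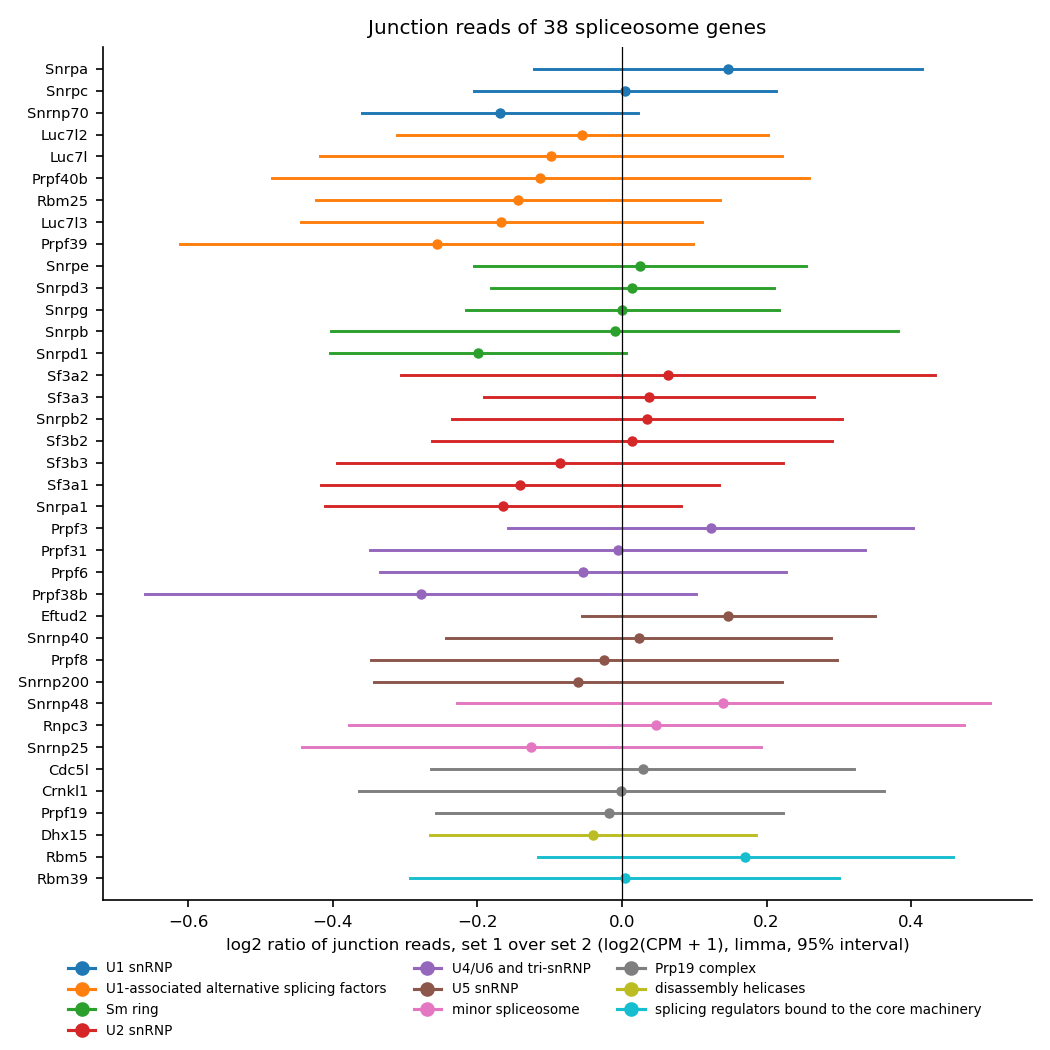
The log2 ratio of junction reads, set 1 over set 2, of the most-read event of each of 38 spliceosome genes, grouped and coloured by role; points are limma estimates on log2(CPM + 1) from 3 libraries per set and lines 95% intervals. Every interval includes 0, and the 6 U1-associated genes all lie left of it.

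Other genes of the pathway were read from a list of 99 that covers further snRNP and recruitment proteins, Sm assembly factors, later-acting spliceosome proteins and minor spliceosome proteins. Of these 77 had events, 331 in all, and 314 were tested. The quasi-binomial test and limma on logit levels each called 0, with 11 and 12 events at an unadjusted p under 0.05 (3.45% of the whole table by the former). The authors' deposited table calls 2 of the 331, where it calls 0.645% of all events. One is an 88-base exon of U2af1, the subunit that reads the acceptor AG (chr17:31654979-31655066), at 1, 0.986 and 0.958 in set 1 and 0.822, 0.910 and 0.877 in set 2. Its adjusted p there, over skipped exons alone, was 2.2e-11, against 0.194 in the quasi-binomial test over all kinds of event. The second is a 79-base exon of Slu7, a factor of the second splicing step (chr11:43436354-43436432), at 0.415, 0.437 and 0.402 against 0.372, 0.234 and 0.201. Its adjusted p there was 0.0398, against 0.735. Both exons had all libraries of set 1 above set 2. Of the 76 junction totals tested in this list limma called 0, with 3 at an unadjusted p under 0.05 (9.45% of all genes) and a smallest adjusted p of 0.0939.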

How the data were processed

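The 6 libraries were built with a NEBNext Ultra kit from Trizol-extracted N2a RNA, per the labels. The submitters' processing notes name build mm10 and the tools HISAT2 2.1.0, Bowtie2 2.2.3 and HTSeq 0.6.0 without saying what each did. The deposited table has the layout of rMATS, per the file headers; version and annotation are not given there. Per the file headers, the authors gave for each event and library whole-number counts of junction reads on 2 forms, and form lengths, inclusion levels as fractions from 0 to 1, p-values and adjusted p-values. Levels recomputed from the counts were within 0.0005 of the deposited values.

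Events with a mean of 20 or more reads per library were tested over the whole table in R 4.3.3 with limma 3.58.1. The quasi-binomial test compares the sets by binomial deviance over a dispersion whose moderation follows the reads on the rarer form, with the prior from events with 5 or more such reads and a floor of 1, within each kind of event. Benjamini-Hochberg adjustment ran over all kinds. A call needed an adjusted p under 0.05 and a change of 0.10 or more. Intervals of 95% cover the difference of pooled levels with that dispersion. Logit levels were held between 0.01 and 0.99 for limma. Gene totals are the counts of the event with the most reads, scaled by their library sum, tested with limma and a mean-variance trend on log2(CPM + 1), where CPM was computed from the deposited counts. The count-model test planned for these totals was not run, and limma took its place. The quasi-binomial test and the test of totals were also run on simulated skipped exons and gene totals with a fixed spread. The outcome is not given here, so it says nothing of their power in these data. Limma on logit levels was not simulated.

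The members, the gene lists and the form of the dispersion prior were chosen with earlier results of these data known. Events named individually are those called, those with non-overlapping sets and a difference of 0.05 or more, the event with the most reads on its rarer form in each role, and up to 20 such events at levels of 0.1 to 0.9, 1 per gene (16 genes had one). Others named beside them (p-values under 0.05, stop-bearing exons, tandem acceptors, extremes) were chosen after their values were seen. Totals named are the largest rise and fall of each role. No label says that libraries came from separate cultures, so p-values measure only the spread between these libraries, and intervals cover what these libraries show. Sequences and exon annotation come from GENCODE vM21, in which all 38 genes, all 200 events and the ends of 131 of 131 skipped exons were found. No column of per-library values was left out.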

Additional observations from a re-analysis of the deposited data

How the results depend on the processing

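No event of the 45 genes was called and no total passed the test under any alternative run: event minimums of 10, 50 and none, limma on logit levels, a dispersion prior along the total count, no minimum change, and each library left out; for totals, median-of-ratios scaling, a pseudocount of 0.5, no minimum count, the sum of all events, and each library left out. The authors' calls stayed at 0 with an adjusted p under 0.01, a change of 0.20, no minimum change, or 20 or more reads. The count of events at an unadjusted p under 0.05, 4 in the test reported, was 11 with the prior along the total count and 4 to 9 with 1 library left out (9 without the first library of set 2, 7 without its second, 7 without the third of set 1). That of totals, 0 as reported, was 1 with median-of-ratios scaling, 2 with the sum of all events, and 0 to 2 with 1 library left out (2 without the first library of set 2, 1 without the third of set 1). Shares of the whole table are not given for these settings. The Rbm39 total was -0.00697 with median-of-ratios scaling and -0.0102 with the sum of all events.

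With 1 library left out, differences in level close to 0 took the other sign 12 times, in 8 of the 18 events named by rule, and log2 ratios of totals 16 times, in 8 of 19 genes, with no adjusted p under 0.833 and 0.872 in those cases. The differences ranged as follows: Eftud2 -0.00955 to 0.00283, Luc7l2 -0.00371 to 0.0716, Prpf19 -0.0173 to 0.00523, Prpf38b -0.0267 to 0.00692, Rbm39 -0.0458 to 0.0103, Sf3b3 -0.0285 to 0.00938, Snrnp70 -0.00695 to 0.018, Snrpa1 -0.0133 to 0.022. The log2 ratios ranged as follows: Cdc5l -0.0242 to 0.12, Dhx15 -0.0915 to 0.00345, Luc7l2 -0.12 to 0.0352, Prpf19 -0.0908 to 0.0522, Rbm39 -0.12 to 0.14, Sf3a2 -0.0908 to 0.2, Snrnp200 -0.12 to 0.0494, Snrpe -0.0368 to 0.0991. Without a change of sign, the Luc7l3 intron ranged from 0.043 to 0.114 and the Prpf40b intron from -0.123 to -0.0386. For the other events at an unadjusted p under 0.05, left out in turn as chosen after seeing the data, the long Snrnp70 3′ site ranged from 0.0255 to 0.0552, its 157-base exon from 0.00228 to 0.00537 and the Prpf31 3′ site from -0.0224 to -0.0024. The planned count-model tests and their scalings were not run. No paired analysis was possible because the columns of the table carry no replicate numbers. Depth limits the events with few reads on the rarer form: 68 of 188 had 5 or more such reads per library.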
